A study of Mus musculus with 4 samples.

Results

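The effect of allergen on the lung of mice kept in UCP air was read from 2 dual-colour arrays, which are 2 of the 4 samples of the study. Each array set lung RNA of BALB/cJ mice that had been sensitized to ovalbumin, challenged with ovalbumin and exposed to UCP against a pool of lung RNA from 6 control animals that had been exposed to UCP and not sensitized. Ovalbumin, from egg white, served as the allergen, BALB/cJ is an inbred mouse strain, and the labels do not expand the abbreviation UCP. UCP exposure was therefore common to both sides of each ratio, and sensitization and challenge cannot be told apart from each other. The challenged lung carried Cy5 on array 1 and Cy3 on array 2. The other 2 arrays made the same comparison in particle-free air, with a control pool kept in particle-free air. The labels name no age, sex, dose or time, and do not say whether the 2 arrays hold RNA of separate animals. The p-values thus reflect how far 2 arrays differ, possibly for technical reasons alone, and a ratio tested against 0 leaves out the spread among control animals.

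Allergic airway inflammation of this kind is driven by type 2 cytokines, chiefly the interleukins IL-4, IL-5 and IL-13. As background, IL-4 and IL-13 act through the transcription factor STAT6, turn macrophages to the alternatively activated state and airway epithelium to mucus production, and draw eosinophils and monocytes through chemokines. Alternatively activated macrophages of the mouse are known for Chil3, a chitinase-like protein also called Ym1, for Retnla, a small secreted protein also called FIZZ1, and for Arg1, an arginine-degrading enzyme. Dissected lung can also carry pieces of neighbouring tissue, such as heart atrium, brown or white fat, thymus and the squamous lining of the oesophagus. Lists of genes for these tissues were followed beside the immune lists. A ratio carries no absolute level, so the labelled tissue could not be checked by the level of lung genes. In whole lung, fewer cells of a type and less RNA per cell cannot be told apart.

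The arrays had values for 19832 and 19546 of 20205 probes. Ratios of challenged lung to control pool are given on the log2 scale, where 1 stands for 2-fold, and the probes of a gene were averaged. Across the 9500 genes measured on both arrays, the median mean ratio was 0.002, and the arrays correlated across genes with Pearson r 0.301 and Spearman rho 0.296, genes not being independent replicates. The deposited direction was not stated. Both arrays run the same way, as the values themselves show, and a positive value likely means more RNA in challenged lung. That reading rests on the usual order of the dyes and on genes long known from allergic lung (Arg1, Ccl8, Chil3, Itln1, Retnla, Slc26a4 and Tff2), so the sign of these genes is no finding.

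Among genes of the lists, the highest ratios in challenged lung belonged to macrophage products, the airway transporter Slc26a4 and chemokines, aside from Car1, whose mean rested on array 2, and the lowest to genes of heart atrium, fat and squamous epithelium. Outside the lists, Ctxn1 and Emx1 lay as high as the chemokines, and Supt20 lay lower than all genes but Nppa. With limma and Benjamini-Hochberg adjustment on the 2 arrays, 0 of 9500 genes (0%) passed 0.05. The smallest adjusted p was 0.0696, for Chil3 and Nppa, and with Retnla these were the 3 genes under 0.10. Before adjustment, 506 higher genes (5.33%) and 571 lower genes (6.01%) had a p under 0.05. The threshold alone would give 475 of 9500 genes, both directions together. When the spread was taken from all 4 arrays, 7 genes passed as higher (0.0767% of 9124) and 9 as lower (0.0986%). The higher ones were Chil3, Ctxn1, Ccl9, Ccl8, Emx1, Saa3 and Slc26a4. The lower ones were Nppa, Supt20, Gpd1, Myl4, Myl7, Tnnt2, Krt5, Car3 and Ankrd1. With the dye orientation added as a block to that fit, 0 passed and the smallest adjusted p was 0.0532. With a test of so few arrays, the description below uses a second measure that needs no spread, namely a ratio of at least 1.5-fold the same way on both arrays. It was met by 290 higher genes (3.05%) and 361 lower genes (3.8%), while 190 genes (2%) were at least 1.5-fold apart from 0 in opposite directions on the 2 arrays. The shares of 3.05% and 3.8% are the background for the list counts below. At 2-fold the counts were 77 (0.811%), 121 (1.27%) and 47 (0.495%). Adjusted p-values given for single genes are from the limma fit on the 2 arrays unless stated otherwise.

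**Figure D1:**
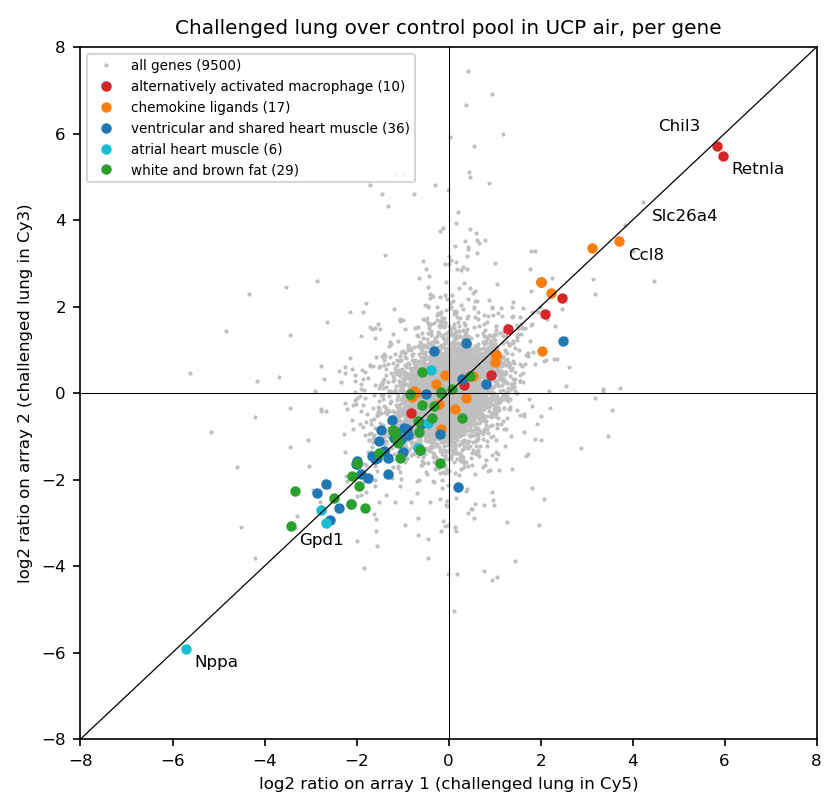
Log2 ratio of each of 9500 genes on array 1 (horizontal, challenged lung in Cy5) against array 2 (vertical, challenged lung in Cy3), both on log2 axes, with the line of equal values and 5 gene lists in colour. Chil3 and Retnla lie at the upper right at means of 5.78 and 5.73, Nppa lies at the lower left at a mean of -5.81, and most genes lie in a cloud around 0 in which the arrays differ.

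The 2 genes with the highest ratios were both hallmark products of alternatively activated macrophages. Chil3 was 5.83 on array 1 and 5.72 on array 2, a mean of 5.78 ± 0.078 (SD, n = 2), which is 54.8-fold (adjusted p = 0.0696). Retnla was 5.97 and 5.49, a mean of 5.73 ± 0.34, which is 53.2-fold (adjusted p = 0.0886). Both arrays placed both genes far above 0, and the arrays lay closer together for Chil3 than for Retnla. A probe for Chil3 can also bind RNA of its close relative Chil4, so the value may hold both. Their RefSeq promoters in build GRCm38.p6, from 250 bases before the start of the gene to 50 bases after it, are shown because STAT6 is known to bind the half-site pair TTC and GAA. Capitals mark matches on either strand to TTC and GAA with 4 bases between them, the spacing preferred by STAT6, to the same pair with 3 bases between them, the spacing of other STAT factors, to GATAA, the core of the GATA site, and to the CArG box, the site of serum response factor. The Chil3 window is chr3:106167515-106167814 on the minus strand and the Retnla window chr16:48842359-48842658 on the plus strand.
Chil3: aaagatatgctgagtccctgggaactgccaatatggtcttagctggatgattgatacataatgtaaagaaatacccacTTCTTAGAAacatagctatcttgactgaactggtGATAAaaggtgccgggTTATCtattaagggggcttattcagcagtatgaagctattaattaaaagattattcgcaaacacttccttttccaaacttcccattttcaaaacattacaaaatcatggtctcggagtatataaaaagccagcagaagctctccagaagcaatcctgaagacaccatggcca
Retnla: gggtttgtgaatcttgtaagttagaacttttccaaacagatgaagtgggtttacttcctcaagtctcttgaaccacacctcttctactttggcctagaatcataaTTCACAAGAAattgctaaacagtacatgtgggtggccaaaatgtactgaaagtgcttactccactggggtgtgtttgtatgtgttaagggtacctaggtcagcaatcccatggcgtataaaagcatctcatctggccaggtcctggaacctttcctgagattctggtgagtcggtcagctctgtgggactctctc
Retnla held TTCACAAGAA at 145 bases before the start, the form with 4 bases between, which 6.95% of 32851 RefSeq windows of the same 300 bases also hold. Chil3 held TTCTTAGAA at 172 bases before the start, the form with 3 bases between, found in 8.3% of windows, and GATAA on 1 strand or the other at 138 and 122 bases. Of the 15 higher genes with the smallest p, all 15 had a window, and 1 held the pair with 4 bases between, 3 the pair with 3 between, 4 GATAA and 1 a CArG box. A match is a run of letters and not a measured binding site.

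The list of alternatively activated macrophage genes had 10 of its 20 members measured. Of these, 7 were at least 1.5-fold higher on both arrays, 0 were lower, and 0 passed the adjusted test. The median of the list was 1.67, with array medians of 1.64 and 1.65. Mrc1, the mannose receptor of macrophages, was 2.10 and 1.82, a mean of 1.96 ± 0.20 (adjusted p = 0.214). Arg1 was 1.28 and 1.48, a mean of 1.38 ± 0.14 (adjusted p = 0.252). A second Arg1 probe, at 4.67 on array 1 with no value on array 2, did not enter this mean. The scavenger receptor Msr1 was 0.92 and 0.41, positive on both arrays and under the 1.5-fold mark on array 2. The transglutaminase Tgm2 was 0.33 and 0.18, positive and under that mark on both arrays. Trem2, a lipid-sensing macrophage receptor, went the other way at -0.81 and -0.46.

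Of the broader macrophage and monocyte list, 14 of 27 measured genes were at least 1.5-fold higher on both arrays (51.9%, against 3.05% of all genes). In that list 1 gene was lower, and the median was 0.82. Ctss, the cathepsin that trims the invariant chain in antigen-presenting cells, was 2.25 and 2.65, a mean of 2.45 ± 0.28. Lgals3, the galectin Mac-2, was 1.59 on both arrays. Tyrobp, the DAP12 signalling adaptor of myeloid receptors, was 1.5 on both arrays. Its partner adaptor Fcer1g was 0.94 and 1.96, so its arrays differed by more than its lower value. The glycoprotein Gpnmb was 1.18 and 1.32, the cathepsin Ctsz 1.27 and 1.56. The adjusted p of these genes ran from 0.214 to 0.349. The 1 member lower on both arrays was Lpl, lipoprotein lipase, at -1.13 and -1.06, a gene that the fat list also holds. Cybb, the catalytic subunit of the phagocyte oxidase, was 0.94 on array 1 and -4.33 on array 2, so its mean of -1.69 shows no common direction.

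Chemokine ligands divided into a high group and a flat one. Of 17 measured ligands, 7 were at least 1.5-fold higher on both arrays (41.2%, against 3.05% of all genes) and 0 were lower. The median of the gene means was 0.17, where the medians on the arrays were 0.38 and 0.40. Ccl8, a ligand that draws monocytes and type 2 lymphocytes, was 3.71 and 3.52, a mean of 3.61 ± 0.14, 0.113 being its adjusted p. Ccl9 and Ccl6 are macrophage-made CC chemokines of the mouse. Ccl9 was 3.12 and 3.35 (adjusted p = 0.154) and Ccl6 was 2.22 and 2.31 (adjusted p = 0.197). Ccl17 and Ccl22, the pair of ligands of the receptor CCR4, were 2.01 and 2.57 for Ccl17 and 1.03 and 0.89 for Ccl22. Pf4, a platelet and macrophage chemokine, was 2.02 and 0.97, and the monocyte attractant Ccl12 was 1.0 and 0.73. On each of these 7 genes both arrays were above 0, as the 1.5-fold measure that picked them requires. The homeostatic ligands Cxcl12 (-0.20 and -0.25) and Cx3cl1 (-0.27 and 0.21) and the T cell attractant Ccl5 (-0.75 and 0.06) lay near or below 0. Among 25 measured cytokines and receptors 0 were higher by this measure, where 3.05% of all genes were. In the same list 1 gene was lower (4%, near the 3.8% of all genes). That 1 gene was Il6st, the shared signalling chain of the IL-6 family, at -1.24 and -0.91.

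**Figure D2:**
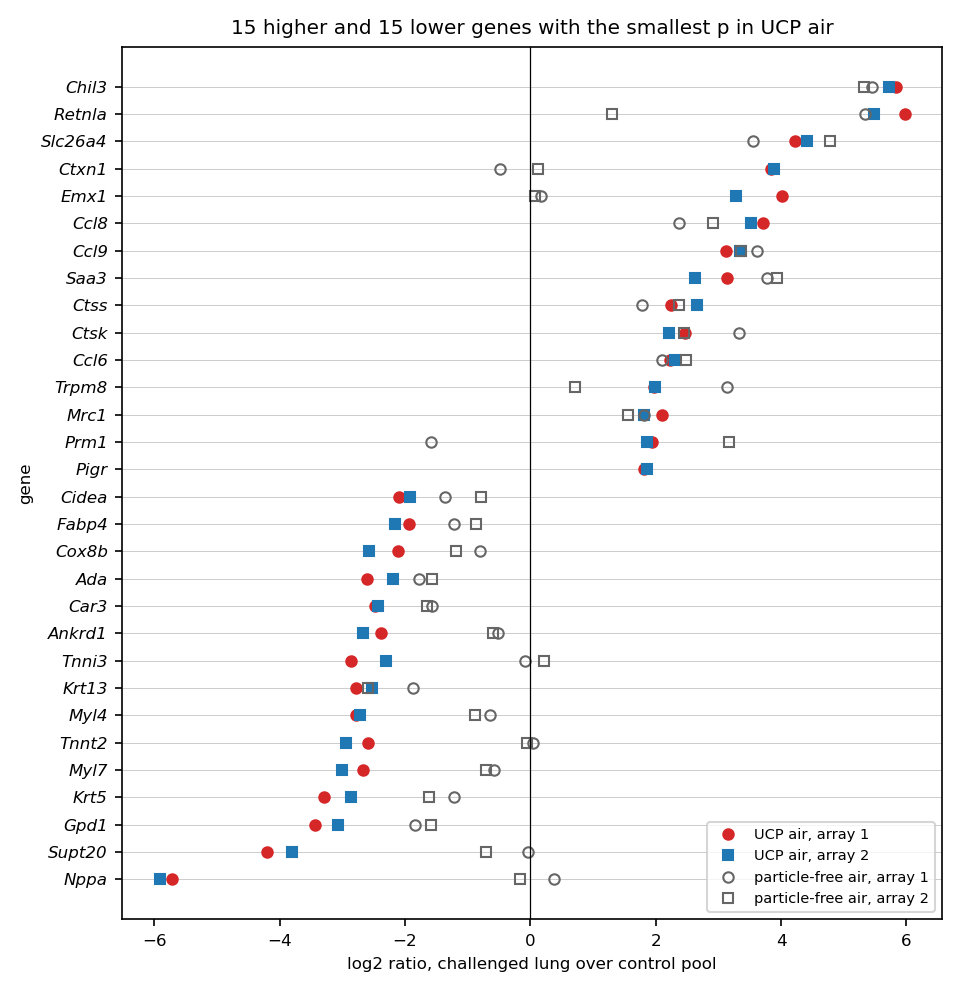
Log2 ratio of challenged lung to control pool (horizontal) for the 15 higher and 15 lower genes with the smallest p in UCP air, with 1 symbol per array; open grey symbols are the 2 arrays of particle-free air. Both UCP arrays lie on the same side for every gene, as the choice of genes requires, and Ctxn1, Emx1, Nppa, Supt20, Tnnt2, Tnni3, Myl4, Myl7 and Ankrd1 lie within 1 of 0 in particle-free air. No particle-free value is plotted for Pigr.

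Goblet cell and mucus genes were few on the array, with 9 of 24 measured. Of these, 3 were at least 1.5-fold higher on both arrays and 0 were lower, with a median of 0.51. Slc26a4, the anion exchanger pendrin of the airway surface, was the third highest of the genes named here at 4.23 and 4.41, a mean of 4.32 ± 0.13, which is 20.0-fold (adjusted p = 0.1). Pigr, the receptor that carries dimeric IgA across epithelium, was 1.81 and 1.87 (adjusted p = 0.214). Tff2, a mucus-associated trefoil peptide, was 1.40 and 1.20 (adjusted p = 0.279). The goblet cell transcription factor Spdef was 0.43 and 0.59, and the lectin Itln1 was 1.06 and 0.45, both positive and short of 1.5-fold on 1 array.

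Granulocyte genes were less uniform. None of 5 measured eosinophil genes reached 1.5-fold on both arrays, where 3.05% of all genes were higher. The granule proteins Prg2 and Prg3 were 0.66 and 0.31, and -0.07 and 0.06, while Alox5ap, which presents arachidonate for leukotriene synthesis, was 1.10 and 0.54. Of 13 neutrophil genes, 4 were higher by the 1.5-fold measure (30.8%, against 3.05% of all genes) and 0 lower. The median of the list was 0.58, and it was 0.17 on array 1 and 0.67 on array 2. The 4 higher genes were the chitinase-like Chil1 (1.65 and 1.51), the iron-trapping Lcn2 (0.96 and 1.81) and the secondary granule genes Ngp (1.01 and 1.13) and Camp (0.91 and 0.67). The 2 probes of Lcn2 disagreed, 1 at 1.83 and 3.77 and the other at 0.09 and -0.15. The primary granule genes Mpo (-0.38 and 1.37) and Elane (-0.50 and 1.69) had opposite signs on the 2 arrays. Of 5 mast cell genes none reached 1.5-fold either way. The acute phase and complement list had 5 of 18 higher and 1 lower, led by Saa3, an acute phase protein made outside the liver, at 3.13 and 2.63 (adjusted p = 0.186). C1qa, of the first complement component, was 1.11 and 0.62, and the protease C1s1 was 0.86 and 1.02. Orm1, an acute phase glycoprotein, was the lower member at -0.74 and -0.85.

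Lysosomal proteases and related genes had a positive median. Their list shares members with the macrophage lists, among them Ctss, Ctsk, Ctsz and Gpnmb. Of 39 measured genes of the lysosome list, 11 were at least 1.5-fold higher on both arrays and 1 lower, with a median of 0.32. Without the genes that other lists also hold the median was 0.07. Ctsk, the collagen-degrading cathepsin, was 2.47 and 2.21, a mean of 2.34 ± 0.18 (adjusted p = 0.208). Psap, the precursor of the saposins, was 1.48 and 1.57. Acp5, the tartrate-resistant acid phosphatase, was the lower member at -1.87 and -0.79. In antigen presentation 3 of 17 were higher and 0 lower. Ifi30, a thiol reductase of the lysosome, was 1.61 and 1.97, the class II chain H2-Eb1 0.77 and 1.18, and B2m, the light chain of class I, 0.84 and 0.64. The class II genes Cd74 (0.58 and 0.88) and H2-Ab1 (0.25 and 1.13) were positive and did not reach the mark on array 1.

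Lists of protein synthesis and growth had positive medians with small ratios. Of 57 cytosolic ribosomal protein genes, 43 were above 0 on both arrays, against 2878 of all 9500 genes, and 10 at least 1.5-fold higher, with a median of 0.47 and array medians of 0.63 and 0.32. Rps9 was 1.27 and 0.93 and Rpsa 0.99 and 0.96. Of 35 genes of the unfolded protein response and secretion, 9 were higher and 0 lower, with a median of 0.37. Sec61b, of the channel into the endoplasmic reticulum, was 1.35 and 1.48, Creld2 1.05 and 1.04, Ssr4 0.98 and 1.09, the folding enzyme Pdia6 0.81 and 0.86, and the transcription factor Xbp1 1.18 and 0.71. For Rpl24 (0.79 and 3.53) and Erp29 (0.62 and 3.53) array 2 decides the mean. Rps13 (1.0 and 3.01) depends on 1 of its 2 probes, which was 5.54 on array 2 where the other was 0.47. Of 55 cell cycle genes, 40 were above 0 on both arrays, again against 2878 of 9500, 5 were at least 1.5-fold higher and 1 was lower. Mki67, the proliferation antigen Ki-67, was 0.82 and 1.16, the topoisomerase Top2a 0.75 and 0.83, the spindle protein Prc1 1.23 and 1.53, and the checkpoint gene Bub3 -1.57 and -1.79.

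The matrix list had 8 of 38 genes higher and 2 lower, with a median of 0.18 that was 0.14 on array 1 and 0.28 on array 2. Col3a1, the fibrillar collagen III, was 1.41 and 1.78, and the metalloprotease Adam8 was 1.38 and 1.76. The collagen VI chains Col6a2 and Col6a1 were 0.67 and 1.54, and 0.88 and 1.06. The proteoglycan Dcn was -1.64 and -1.14 and the fibulin Fbln2 -0.81 and -1.06, so the list held both directions. Of 37 antioxidant and xenobiotic genes, 4 were higher and 2 lower, a share near that of all genes on the lower side. Gpx1, the cytosolic glutathione peroxidase, was 1.0 and 1.24, its secretory pathway relative Gpx7 1.22 and 0.99, the peroxiredoxin Prdx4 1.02 and 1.06, and the glutathione transferase Gstm1 -1.22 and -0.86. Hmox1, the haem oxygenase, was -3.44 and -0.34, so array 1 decides its mean. Of 16 interferon response genes 0 were at least 1.5-fold higher and 1 was lower. Their median was 0.31, and 11 were above 0 on both arrays, against 2878 of all 9500 genes. Of 65 respiratory chain genes 1 was higher (1.54%, against 3.05% of all genes) and 0 lower. The housekeeping list of 9 genes had a median of 0.01, with Gapdh at -0.62 and -0.11 and Actb at 0.46 and -0.39.

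**Figure D3:**
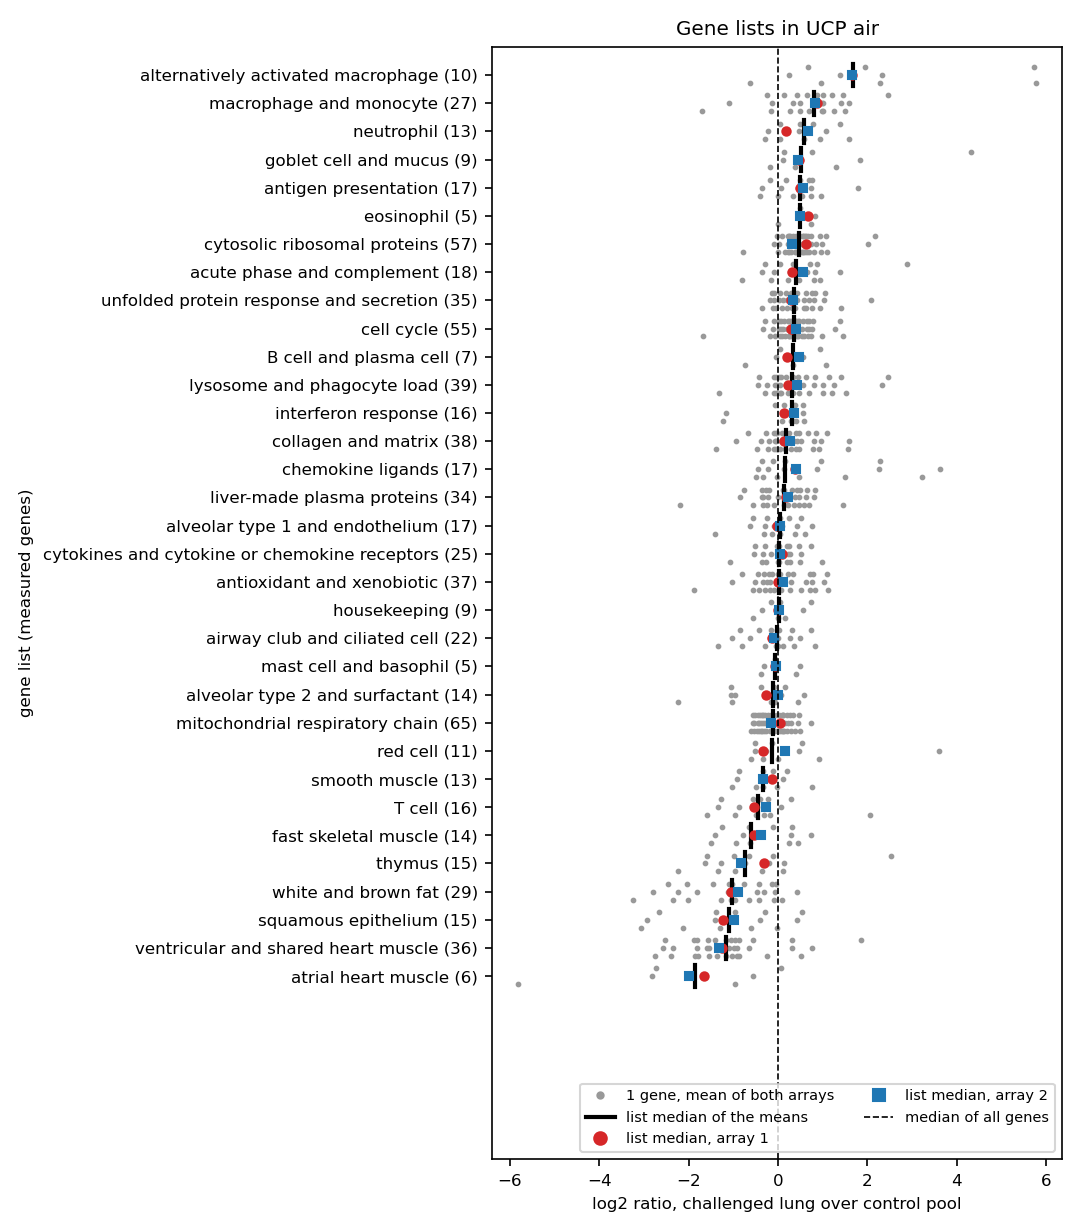
Mean log2 ratio of every measured gene in the 33 gene lists (grey points, horizontal axis), with each list's median of the means as a black bar, its median on array 1 (red) and array 2 (blue), and the median of all genes as a dashed line. The list medians run from 1.67 for alternatively activated macrophages to -1.85 for atrial heart muscle.

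At the other end of the range stood genes of heart muscle. Nppa, the atrial natriuretic peptide made by atrial muscle, was -5.72 and -5.91, a mean of -5.81 ± 0.14 (SD, n = 2), which is 56.2-fold lower in challenged lung than in the control pool (adjusted p = 0.0696). The atrial light chains Myl7 (-2.66 and -3.00) and Myl4 (-2.77 and -2.71) had an adjusted p of 0.173 each. Of 6 measured genes of the atrial list 4 were at least 1.5-fold lower on both arrays and 0 higher, with a median of -1.85. The list and its median include Myl1, a light chain better known from fast skeletal muscle. The promoters of Nppa, at chr4:148000472-148000771 on the plus strand, and Myl7, at chr11:5898733-5899032 on the minus strand, are shown because heart genes are known targets of GATA and serum response factors.
Nppa: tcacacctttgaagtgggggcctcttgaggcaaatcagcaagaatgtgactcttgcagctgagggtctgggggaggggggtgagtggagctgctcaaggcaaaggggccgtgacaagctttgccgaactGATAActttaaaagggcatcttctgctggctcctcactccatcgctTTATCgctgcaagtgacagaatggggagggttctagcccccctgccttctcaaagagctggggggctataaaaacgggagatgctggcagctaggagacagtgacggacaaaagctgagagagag
Myl7: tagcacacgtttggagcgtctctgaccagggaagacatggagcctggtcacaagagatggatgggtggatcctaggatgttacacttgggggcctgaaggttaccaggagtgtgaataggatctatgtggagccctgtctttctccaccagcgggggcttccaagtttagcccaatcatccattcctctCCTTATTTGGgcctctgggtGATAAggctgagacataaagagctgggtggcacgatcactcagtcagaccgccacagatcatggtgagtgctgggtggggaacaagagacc
Nppa held GATAA on 1 strand or the other at 121 and 75 bases before the start. Myl7 held GATAA at 41 bases and the CArG box CCTTATTTGG at 61 bases before the start. GATAA is common, in 25.4% of windows, and the CArG box is in 1.63%. Of the 15 lower genes with the smallest p, 11 had a window, of which 8 held GATAA, 1 a CArG box, 1 the TTC and GAA pair with 3 bases between and 0 that with 4.

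Genes of ventricular muscle, or shared by all heart muscle, were lower as a body. Of 36 measured, 28 were at least 1.5-fold lower on both arrays (77.8%, against 3.8% of all genes), 1 was higher, and the median was -1.17. The troponins Tnnt2 (-2.58 and -2.95, adjusted p = 0.173) and Tnni3 (-2.86 and -2.31, adjusted p = 0.214) led, with Ankrd1, a stress-responsive sarcomere protein, at -2.38 and -2.67. Myoglobin, Mb, was -2.66 and -2.11. Myl2, the light chain typical of the ventricle, was -1.90 and -1.86. The 1 higher member was Actn2, a Z-disc actinin, at 2.49 and 1.21. Myl2, the 1 gene named here as typical of the ventricle, was thus lower with the atrial genes, by a smaller ratio than Nppa. Of 14 fast skeletal muscle genes 4 were lower and 0 higher, among them the myosins Myh1 (-1.53 and -1.46) and Myh4 (-1.72 and -1.10), whereas Ckm was 0.30 and 0.31 and Tnnc2 0.40 and 0.10. Of 13 smooth muscle genes 3 were lower, namely Myh11, Ldb3 and Des. The list of ventricular and shared heart muscle also holds Ldb3 and Des, and the probes of Ldb3 disagreed. Of the lower genes, only Myh11 was held by the smooth muscle list alone. Acta2, the smooth muscle actin, was -0.05 and 0.25.

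White and brown fat genes made the second lower group, with 18 of 29 measured genes (62.1%) at least 1.5-fold lower on both arrays, 0 higher and a median of -1.03. Gpd1, which makes glycerol phosphate for triglyceride, was -3.43 and -3.07, a mean of -3.25 ± 0.25 (adjusted p = 0.171). Car3, a carbonic anhydrase abundant in fat, was -2.48 and -2.43, the fatty acid carrier Fabp4 -1.94 and -2.15, and the adipokine Adipoq -1.05 and -1.5. Genes of brown fat were among the lowest of the list. Ucp1, the uncoupling protein of brown fat, was -3.33 and -2.27, the lipid droplet protein Cidea -2.10 and -1.92, and the cytochrome oxidase subunit Cox8b, which heart also expresses, -2.11 and -2.57. The gene Ucp1 only shares letters with the name of the exposure. Fatty acid synthesis genes, which alveolar type 2 cells also use for surfactant, were lower as well: Fasn was -1.82 and -2.65, Scd1 -1.16 and -0.91 and Acly -1.21 and -0.88.

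Squamous epithelium genes formed the third, with 9 of 15 measured genes (60%) lower, 0 higher and a median of -1.10. The basal keratin Krt5 was -3.29 and -2.85, a mean of -3.07 ± 0.31, and the oesophageal keratin Krt13 was -2.79 and -2.53, both at an adjusted p of 0.173. Krt14, the partner of Krt5, was -1.74 and -1.09, and Tgm3, a cross-linking enzyme of the cornified layer, -1.89 and -2.35. Krt17 (0.40 and 0.44), Dsp (0.37 and 0.72) and Krt15 (-0.36 and -0.22) did not share this. Thymus genes were lower on both arrays for 6 of 15 (40%), with a median of -0.75 that was -0.32 on array 1 and -0.83 on array 2. Dntt, the polymerase that adds bases to antigen receptor joints, was -1.60 and -1.69, Prss16, a protease of thymic epithelium, -1.58 and -2.91, and Cd8a -1.61 and -1.56. A further Cd8a probe, at 1.72 on array 2 with no value on array 1, did not enter its value. The transcription factor Bcl11b was -1.35 and -1.32, and Thy1 was -1.29 and -1.27. Psmb11, the proteasome subunit of thymic cortex, was the exception at 1.78 and 3.28. Of 16 T cell genes 4 were lower and 1 higher. The 4 were Cd8a, Cd8b1, Bcl11b and Thy1, which the thymus list also holds, and the 1 higher gene, Cd7, rested on array 2 (0.67 and 3.46). Ada, adenosine deaminase, an enzyme of high activity in thymus and in the squamous upper digestive tract, was -2.61 and -2.18.

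Genes of these tissues were low in the same 2 arrays, and how far tissue carried with the lung set their ratios was not tested. Of the 361 genes at least 1.5-fold lower on both arrays, 292 were left when the members of the heart, skeletal muscle, fat, squamous, thymus and liver-made lists were taken out, and 287 of the 290 higher genes were left.

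Genes of the lung's own cells had medians near 0, though alveolar type 2 and airway genes were lower more often than all genes. Of 17 genes of alveolar type 1 cells and endothelium, 1 was higher and 1 lower. Ager, the defining type 1 gene, was -0.03 and 0.52 and Aqp5 -0.25 and -0.36, while Plvap, of fenestrated endothelium, was -1.11 and -1.70. Among 14 genes of alveolar type 2 cells, 5 were lower (35.7%, against 3.8% of all genes) and 0 higher. Of these 5, 3 were the fatty acid synthesis genes above. The surfactant protein Sftpb was -1.02 and -1.10, while Sftpc, the gene most particular to these cells, was -0.26 and 0.41. The type 2 cell transcription factor Etv5 was -0.78 and -1.17, and its probes disagreed. Of 22 airway club and ciliated genes 4 were lower (18.2%, against 3.8% of all genes) and 1 higher. Among the 4 was Tubb4b, at -0.93 and -0.77, whose 2 probes disagreed. Of these probes, 1 was above 0 on both arrays, at 0.14 and 0.34. Cyp2f2, a club cell cytochrome P450, was -1.64 and -1.04, Selenbp1 -1.06 and -0.99 and Cyp4b1 -0.96 and -0.67, and the higher gene was Aldh1a7 at 0.93 and 0.74. Of 11 red cell genes 2 were higher and 1 lower, and Car1, at 1.19 and 6.00, rested on array 2.

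Some of the most extreme single genes belonged to no list and rested on 1 probe each. Ctxn1, a small neuronal membrane protein, was 3.84 and 3.89 (adjusted p = 0.107). Emx1, a homeobox gene of the developing forebrain, was 4.01 and 3.28, and its Cy5 over Cy3 ratio on array 1, with the array's constant removed, was the whole number 11. Such whole numbers among ratios from 3 to 30 were 19.7% of array 1, against 12.5% at half-numbers, and 12.1% against 2.7% on array 2. With whole-number ratios set to missing, the counts at 1.5-fold on both arrays were 283 higher and 344 lower. The sperm protamine Prm1 was 1.94 and 1.87 and the cold-sensing channel Trpm8 1.98 and 1.99. Supt20, a subunit of the SAGA complex, was -4.21 and -3.81 (adjusted p = 0.113) on the probe numbered 7061, just after the Nppa probe, numbered 7059. The unnamed probe 7060 between them was -2.42 and -2.26, and the unnamed probe 7063 -1.97 and -1.31. Other nearby numbers were not low: the Cd9 probe 7062 was -0.27 on array 2 with no value on array 1, probe 7056, of Ube2d2a, was 0.21 and -0.46, and the unnamed probe 7057 was 0.62 and -1.23. The unnamed probe 7058 was at the positive ceiling of array 1 and had no value on array 2. A second Supt20 probe was -0.35 on array 1 and had no value on array 2. Whether neighbouring numbers were neighbouring spots is not given in the sources used here, and their part in the Supt20 value was not tested.

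In particle-free air Chil3, Ccl9 and Slc26a4 also lay more than 3 above 0, while the heart muscle lists had medians closer to 0 there. The list medians were not tested between the airs. The 2 airs have control pools of their own. The difference between the airs was tested with limma on the 9124 genes with values on all 4 arrays, and 0 genes passed after adjustment (0%), the smallest adjusted p being 0.142, for Nppa. At an unadjusted p under 0.05, 174 genes were higher in UCP air (1.91%) and 207 lower (2.27%). The shares for UCP air against 0 were 5.33% and 6.01%. Chil3 was 5.45 and 5.32 in particle-free air, below both of its values in UCP air. Ccl9 was 3.62 and 3.37, above both of its UCP values. Slc26a4 lay on either side of its UCP values, at 3.55 and 4.77 in particle-free air. Retnla was 5.34 and 1.30 there, so its particle-free arrays did not repeat each other. Nppa was 0.38 and -0.17 in particle-free air against -5.72 and -5.91 in UCP air, a difference of -5.92 ± 0.32 (SE). Tnnt2 was 0.04 and -0.06 there. Myl2 was 2.03 and 1.5, opposite in sign to UCP air on all 4 arrays (adjusted p of the difference 0.288).

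**Figure D4:**
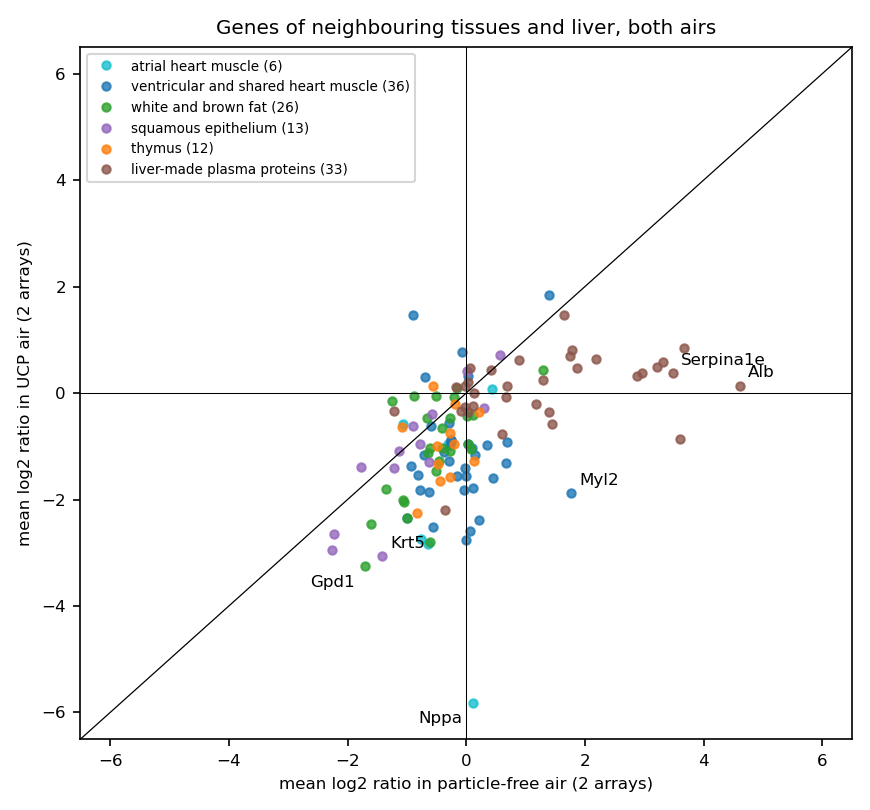
Mean log2 ratio of challenged lung to control pool in particle-free air (horizontal) and in UCP air (vertical), 1 point per gene with values on all 4 arrays, for 5 lists of neighbouring tissues and the liver-made list, with the line of equal values. Nppa lies lowest at -5.81 in UCP air, Myl2 lies below the line and Pgam2, of the same list, above it, and the liver-made Alb lies far right at 4.61 horizontally and 0.14 vertically.

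By list, the atrial median was -1.85 in UCP air and -0.48 in particle-free air, and the ventricular median -1.17 and -0.11. For fat the pair was -1.03 and -0.56, for thymus -0.75 and -0.27, and for squamous epithelium -1.10 and -0.89. Liver-made plasma protein genes also had the lower median in UCP air, though from a positive value in particle-free air. Their median was 0.14 in UCP air (0.19 on array 1 and 0.21 on array 2), with 1 of 34 higher and 2 lower, and 1.10 in particle-free air, with 15 of 33 higher, where 349 of all 9355 genes measured in that air were higher (3.73%). Serpina1e, of the antitrypsin family, whose members share sequence and probes, was 0.59 and 0.17 in UCP air and 3.51 and 3.45 in particle-free air. Fabp1, the liver fatty acid carrier, was -0.51 and -0.70 in UCP air and 2.48 and 2.28 in particle-free air. The adjusted p of the difference was 0.293 for each. Ctxn1 (-0.48 and 0.12 in particle-free air) and Emx1 (0.18 and 0.07) were the higher genes with the smallest p of the difference (adjusted p = 0.288 and 0.293). Slc25a13, a mitochondrial aspartate and glutamate carrier, was 1.80 and 2.37 in UCP air and -0.92 and -0.37 in particle-free air. Over genes measured on all 4 arrays, 265 were at least 1.5-fold higher in UCP air, of which 106 (40%) were also higher in particle-free air, which is 31.3% of the 339 higher there. Of 346 lower genes in UCP air, 94 (27.2%) were also lower in particle-free air, which is 29.1% of the 323 lower there. Over all 9355 genes measured in particle-free air, 334 were lower there (3.57%).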

How the data were processed

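The authors deposited, per the file headers, 1 table of log2 ratios for 20205 probes and 4 arrays. Per the labels, RNA came from individual organs, and 20 µg was labelled indirectly with Cy3 or Cy5. The sources used here do not state scanner, normalization or direction. Each array's extreme value is the log2 of 100000, a ceiling on the ratio, shifted by 1 constant. The cap was positive on the Cy5 array and negative on the Cy3 array, so both run the same way. It covered 20 and 58 probes of the 2 UCP arrays, which were set to missing. Ratios carry 3 decimals, so the Nppa ratio of 0.013 on array 1 is coarse.

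Probes named by the platform annotation (13852 with 1 symbol, 0 with several, 6353 with none, and 13849 found through the gene identifier) and valued on both UCP arrays were averaged by gene. Of 2747 genes with more than 1 probe, 481 had probes over 1 apart. limma 3.58.1 in R 4.3.3 (lmFit and eBayes, two-sided, 1 residual and 2.64 prior degrees of freedom) tested the mean against 0, with Benjamini-Hochberg adjustment over all genes at 0.05. The difference between airs used 1 coefficient per air. The fit was tested on simulated data. Named genes were the 15 higher and 15 lower with the smallest p among those at least 1.5-fold the same way on both arrays, up to 6 such members of each of 33 lists, and the 5 higher and 5 lower with the smallest p of the difference. Other genes were picked with their values in view. Leaving out tissue-list genes, shared list members or whole-number ratios was chosen after seeing the data. The arrays, lists and rules were chosen with earlier results of these data known. Promoters came from the RefSeq table of GRCm38.p6. No brightness values were used, so no filter on dim probes, background correction or slide block was run.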

Additional observations from a re-analysis of the deposited data

Results flagged for a closer look

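Of the 9124 genes with values on all 4 arrays, 265 were at least 1.5-fold higher and 346 lower on both arrays of UCP air. For 7 of these, both arrays of particle-free air lay at least 1.5-fold on the other side of 0. On the limma test of the difference with Benjamini-Hochberg adjustment none passed, and the adjusted p ran from 0.288 to 0.691. The values are over the probes with a value on all 4 arrays. Myl2, the ventricular light chain, was -1.90 and -1.86 in UCP air and 2.03 and 1.5 in particle-free air, a difference of -3.65. Orm1, the acute phase glycoprotein, was -0.74 and -0.85 against 0.65 and 0.92, a difference of -1.58. Mtmr6, a phosphoinositide phosphatase, was -1.74 and -1.36 against 1.46 and 1.27, a difference of -2.92. Pgam2, the muscle phosphoglycerate mutase, was 1.79 and 1.13 against -0.63 and -1.17, a difference of 2.36. That holds for 1 of its 2 probes, and over both probes Pgam2 was 0.81 and 0.22 in UCP air. Cplx3, a complexin of synapses, was 0.96 and 0.71 against -1.71 and -1.22, a difference of 2.30. Hsf5, a heat shock factor family member, was 0.70 and 0.77 against -1.34 and -1.76, a difference of 2.29, where averaging its probes measured on both particle-free arrays gave -2.44 and -1.32. Zfp13, a zinc finger gene, was 1.17 and 1.77 against -1.06 and -0.73, a difference of 2.36. Of 127 named genes with values on all 4 arrays, 10 were of opposite sign in the airs at any size. Myl2, Hsf5, Cplx3, Slc25a13 and Fabp1 are among them, and were named for a small p of the difference. The count is thus partly set by how genes were named, and gives no share for all genes.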

How the results depend on the processing

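On the 2 arrays limma called 0 genes, and so it did with arrays centred on their medians, centred and scaled, capped values kept, the median of the probes of a gene, robust moderation, each probe tested, or whole-number ratios missing, the last chosen after seeing the data. With the spread from all 4 arrays 16 genes passed, and 2 (Chil3 and Nppa) when genes with a value on at least 1 UCP array entered. Without UCP replicate 1 or 2, 0 to 0 genes passed, but there the spread comes from the particle-free arrays alone and the lone UCP array is assumed to vary like them, so this says nothing about stability. With the replicate block 0 passed in UCP air (smallest adjusted p 0.0532) and 0 for the difference (0.398). The replicate number also marks the dye orientation, and same-numbered arrays deviated together with r 0.093 across genes. Because number and dye coincide, that value cannot decide whether the numbers pair samples. The difference called 0 genes under all 9 alternatives, with 0 to 0 when 1 array was left out, under the same limit.

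Of 651 genes at least 1.5-fold the same way on both arrays (290 higher, 361 lower), 198 (77 and 121) were left at 2-fold. By probe there were 1535 (650 and 885). On 1 array alone, that is without replicate 1 or 2, 1819 to 2341 genes passed this mark (806 to 1202 higher, 1013 to 1139 lower). Centring and scaling, capped values and the rule for probes kept the counts within 1.5 times. Over 33 lists and their alternatives, a list median moved by more than the arrays differed in 42 cases and did not in 222. The medians of the red cell, respiratory chain, antioxidant and alveolar type 1 lists differed in sign between the arrays. The mean of Etv5 was -0.43 without replicate 1 and 0.12 without replicate 2, the values of 1 of its 2 probes, because the other lacks a value on an array and drops out of those fits, against -0.97. The number of arrays limits every value, and dim probes could not be told from bright ones.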

Other observations

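Of 77 genes at least 2-fold higher on both UCP arrays, 43 were in none of the lists, and of 121 at least 2-fold lower, 67 were not. The genes that follow were chosen from them after their values were seen, and none passed the adjusted limma test. S100a4, a calcium-binding protein of motile cells, was 2.46 and 1.95, Plac8 1.78 and 1.56, and Tnfsf8, the ligand of CD30, 2.13 and 1.72. Cish, a feedback inhibitor of cytokine signalling through STAT5, was 1.51 and 1.5. The C-type lectin Cd209d was 1.02 and 1.56, and Fkbp11, a folding enzyme of secretory cells, 1.5 and 1.30.

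Among the lower genes, several are known from squamous epithelium or skeletal muscle and were left out of the lists. Sbsn was -2.23 and -1.91, the protease inhibitor Spink5 -1.30 and -1.47 and the protease Asprv1 -3.04 and -1.69. The perinatal myosin Myh8 was -1.85 and -2.04 and muscle glycogen phosphorylase, Pygm, -1.84 and -1.63. Others have no such tie. The clock gene Per1 was -1.16 and -1.18, the angiogenic factor Vegfa -1.13 and -1.52, and the splicing factor Srsf4 -4.51 and -3.09, against 0.69 and -0.12 for Srsf4 in particle-free air.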
